A study of Ovis aries with 9 samples.

Results

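The 10 genes described here are expressed mainly in oocytes or germ cells, and they were chosen by name from the 27174 rows of an RNA-Seq count table of sheep ovaries. They are the oocyte growth factors GDF9 and BMP15, the zona pellucida proteins ZP2 and ZP3, the subcortical maternal complex genes KHDC3L and OOEP, the germ cell RNA genes DDX4, DAZL and PIWIL2, and the oocyte transcription factor NOBOX. All 10 symbols had a row in the table. All 10 were also listed as protein-coding genes in the RefSeq annotation of a later sheep assembly, which served for names only.

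Ovaries of 9 ewes were sequenced, with 1 library per ewe. The groups were 3 Dorset sheep (ewes D4, D5 and D6, labelled wild type), 3 homozygous FecB carriers of the Small Tail Han breed (Han BB, ewes W1, W2 and W4) and 3 non-carriers of that breed (Han ++, ewes W6, W7 and W8). FecB is the Booroola allele of BMPR1B, a receptor for bone morphogenetic proteins, and its carriers have large litters. All ewes were 2.5 to 3 years old, and their estrus was synchronized with a progestagen sponge and pregnant mare serum gonadotropin. Whole ovaries were removed 24 to 36 h after the next spontaneous estrus, and the methods name better ovulation points as an aim of the sampling. The methods do not state whether the whole organ went into the RNA. Han BB against Han ++ compares FecB genotypes within a breed, while Han ++ against Dorset compares breeds, and Han BB against Dorset combines both differences, so that breed and genotype cannot be told apart there. Per the methods, both breeds came from the same farm and were kept under similar conditions.

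Oocytes make up a very small share of the cells of a whole ovary, and most of them rest in primordial follicles. A growing oocyte secretes GDF9 and BMP15, which act on receptors of the surrounding granulosa cells, including BMPR2, TGFBR1 and BMPR1B, and inactivating mutations of either ligand alter ovulation rate in sheep. The oocyte also builds the zona pellucida, the glycoprotein coat that sperm bind, and stores proteins and RNAs for the first cleavages. DDX4, DAZL and PIWIL2 are older germ line genes that act on RNA in germ cells of both sexes. In a library of ovary tissue, fewer oocytes and less RNA per oocyte cannot be told apart.

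Library totals were 10803913 to 20992535 counted reads. Of these, the 10 genes together received 115 reads in the poorest library (W8) and 547 in the richest (D5). Their share of the reads ran from 0.000857% in W7 to 0.00264% in D5. W4 (Han BB) and D6 (Dorset), ewes of different groups, were each other's closest library by rank correlation over the tested genes (rho = 0.978). Both lay at the same end of the first principal component, which held 41.1% of the variance. They were not alone in this, since W6 and W7 were also each other's closest library (rho = 0.980). D4 lay furthest out on that component, at the other end, and the rho with its closest library, 0.956, was the lowest of all. Results are also given without W4 and D6. Below, a level is given in raw reads or in CPM (read counts relative to the library total, adjusted with TMM factors), errors are SDs over the 3 ewes of a group, and 95% intervals of single libraries are exact Poisson intervals, which cover counting error only because PCR reads are not independent molecules. Levels of different genes are not compared, since gene lengths of the build were not used here.

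Summed over the 10 genes, the level was 17.6, 24.7 and 23.7 CPM in Dorset ewes D4, D5 and D6. It was 22.7, 12.1 and 20.8 in Han BB ewes W1, W2 and W4, and 16.7, 8.14 and 10.6 in Han ++ ewes W6, W7 and W8. The 3 Han ++ libraries were thus the lowest apart from W2, all of them lay below all Dorset libraries, and Han BB overlapped both groups. The nearest ewes of Han ++ and Dorset were close, W6 at 16.7 and D4 at 17.6. How often sums of other genes separate these groups was not computed, so this is a description only. ZP3, ZP2 and GDF9, with 829, 552 and 470 reads over all libraries, weigh most in the sum. Individual genes did not follow this sum uniformly, as the plot of levels by ewe shows.

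**Figure D1:**
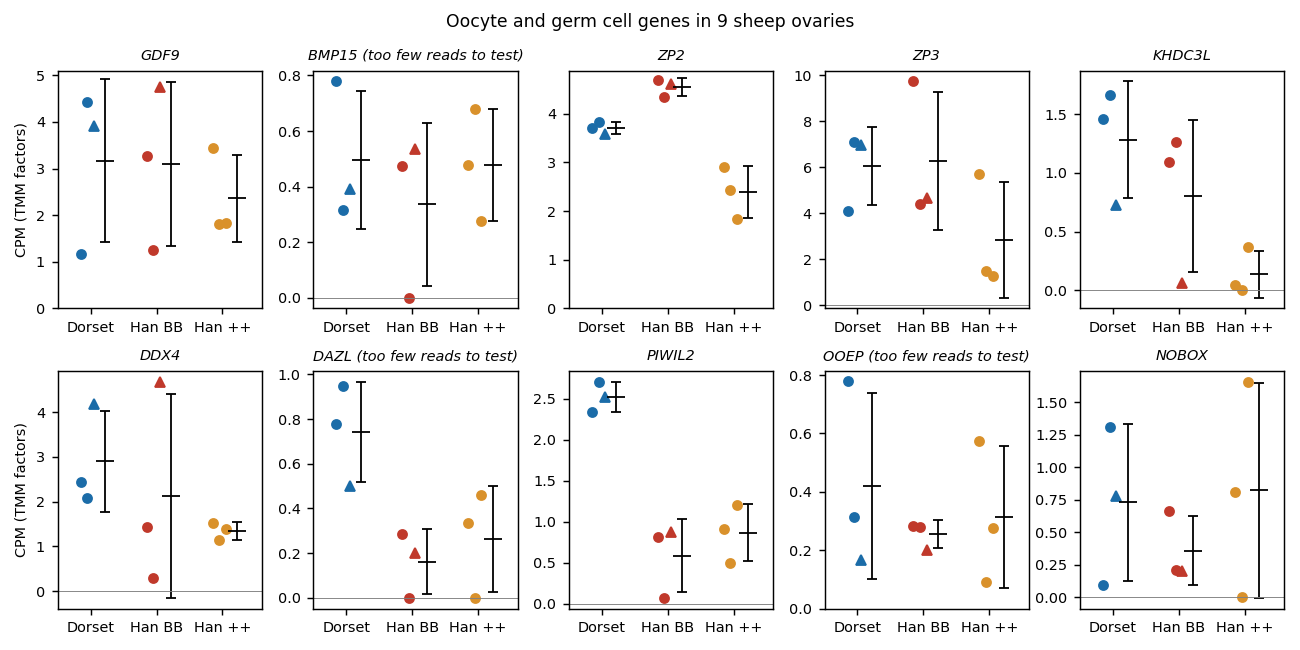
Levels of the 10 genes in CPM, 1 panel per gene with its own vertical axis. Points are ewes (triangles for W4 and D6), and the bars to the right of each group give the mean ± SD of its 3 ewes. The 3 groups of ZP2 do not overlap, a pattern whose share over all rows was not computed. PIWIL2 separates Dorset, between 2.34 and 2.70, from all 6 Han ewes, at or below 1.20, and GDF9 overlaps throughout.

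GDF9 had 12, 98 and 70 reads in the Dorset ewes D4, D5 and D6, 69, 18 and 71 reads in the Han BB ewes W1, W2 and W4, and 72, 40 and 20 reads in the Han ++ ewes W6, W7 and W8. In CPM the means were 3.16 ± 1.75 in Dorset, 3.095 ± 1.75 in Han BB and 2.36 ± 0.929 in Han ++. Each group held a ewe with a level under 2 and one over 3, so the ranges overlapped in every comparison. The fitted log2 difference between Han BB and Dorset was -0.04 with a 95% interval from -1.43 to 1.34, which leaves room for changes of more than 2-fold in either direction.

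BMP15 encodes the partner of GDF9 and had few reads, with 8, 7 and 7 in Dorset, 10, 0 and 8 in Han BB and 10, 15 and 3 in Han ++. The count of 0 in W2 allows a level of up to 0.21 CPM, set by 3 reads in that library. The other 8 libraries lay between 0.276 and 0.779 CPM, and all 3 groups overlapped. BMP15 did not pass the filter on low counts.

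ZP2, a zona protein that takes part in sperm binding, had 38, 85 and 64 reads in the Dorset ewes, 99, 62 and 69 in Han BB and 61, 54 and 20 in Han ++. Its levels were 3.70, 3.83 and 3.57 CPM in Dorset, 4.70, 4.34 and 4.62 in Han BB and 2.91, 2.44 and 1.84 in Han ++. ZP2 was the only gene of the 10 whose 3 groups did not overlap, in the order Han ++, Dorset, Han BB. The share of all rows with 3 separate groups was not computed, so this is a description only. The neighbours in that order were close: the counting interval of W2, the lowest Han BB ewe, ran from 3.33 to 5.57, and that of D5, the highest Dorset ewe, from 3.06 to 4.74. The coefficients of variation, 3.47% in Dorset and 4.09% in Han BB, were smaller than counting error alone would give with these read numbers, so the narrow ranges of these groups are no measure of the spread between ewes.

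ZP3, another structural protein of the zona, had 42, 157 and 125 reads in Dorset, 205, 63 and 70 in Han BB and 120, 33 and 14 in Han ++. Its mean level was 6.05 ± 1.70 CPM in Dorset, 6.28 ± 3.00 in Han BB and 2.84 ± 2.504 in Han ++. The lowest values were those of W7 (1.49) and W8 (1.29), while the Han ++ ewe W6 reached 5.73 and lay inside the range of both other groups. The ratio of ZP3 reads to ZP2 reads within a library, which no scaling touches, ran from 0.611 in W7 to 2.07 in W1, with 1.97 in W6 and 0.7 in W8, so the ewes of a group did not share a ratio.

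KHDC3L and OOEP encode parts of the subcortical maternal complex, a protein assembly under the egg membrane that the early embryo needs. KHDC3L had 15, 37 and 13 reads in Dorset and 23, 18 and 1 in Han BB, against 1, 0 and 4 in Han ++. All Dorset libraries exceeded all Han ++ libraries, and Han BB was split between W1 and W2, at 1.09 and 1.26 CPM, and W4 at 0.0669. The 95% counting intervals of the Han ++ ewe W8 (0.100 to 0.943 CPM) and the Dorset ewe D6 (0.387 to 1.24) overlapped. OOEP had between 2 and 12 reads in every library, its groups overlapped in every comparison, and it did not pass the filter.

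DDX4 is an RNA helicase and a standard marker of germ cells. It had 25, 46 and 75 reads in Dorset, 30, 4 and 70 in Han BB and 32, 25 and 15 in Han ++. The 3 Han ++ levels, 1.53, 1.13 and 1.38 CPM, lay close together and below the Dorset levels of 2.43, 2.07 and 4.19. Han BB held both extremes of the series, 0.280 in W2 and 4.68 in W4. The highest levels of this gene were those of W4 and D6, which were each other's closest library over the tested genes.

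DAZL, an RNA-binding protein that promotes translation in germ cells, had 8, 21 and 9 reads in Dorset, 6, 0 and 3 in Han BB and 7, 0 and 5 in Han ++. The Dorset levels of 0.503 to 0.947 CPM exceeded all 6 Han levels, which ended at 0.461 in W8. The difference between D6 and W8 was one of 9 reads against 5, well inside counting error. DAZL did not pass the filter.

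PIWIL2, an Argonaute protein of the piRNA pathway that restrains transposons in germ cells, separated Dorset from Han. It had 24, 60 and 45 reads in the Dorset ewes D4, D5 and D6, 17, 1 and 13 in the Han BB ewes and 19, 11 and 13 in the Han ++ ewes. Levels were 2.34, 2.70 and 2.51 CPM in Dorset, 0.807, 0.0700 and 0.870 in Han BB and 0.907, 0.498 and 1.20 in Han ++. The counting intervals of the lowest Dorset ewe (D4, 1.497 to 3.48) and the highest Han ewe (W8, 0.638 to 2.05) overlapped, while the other 5 Han ewes had intervals that ended at or below 1.49. Per read of ZP2, PIWIL2 had 0.632 to 0.706 reads in Dorset, 0.0161 to 0.188 in Han BB ewes, and 0.204 to 0.65 in Han ++ ewes, where W8 fell within the Dorset range.

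NOBOX, a homeobox factor that drives oocyte genes in early follicles, had 1, 29 and 14 reads in Dorset, 14, 3 and 3 in Han BB and 17, 0 and 18 in Han ++. Every group had a library with at most 3 reads, and the groups overlapped in every comparison. The plot of raw reads shows how wide the counting intervals of the sparsest genes were.

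**Figure D2:**
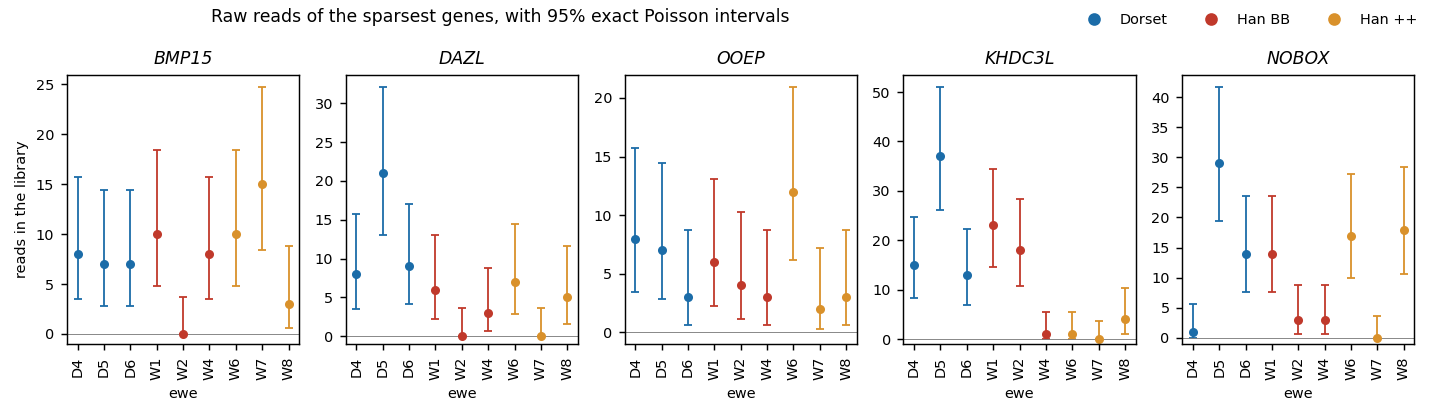
Raw reads of BMP15, DAZL, OOEP, KHDC3L and NOBOX in each ewe's library, with 95% exact Poisson intervals and a separate vertical axis per gene. The intervals of most libraries overlap. KHDC3L had 0 to 4 reads in the Han ++ ewes and 13 to 37 in the Dorset ewes.

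Differences between groups were tested with edgeR's quasi-likelihood F-test in 1 fit of all 9 libraries, and 7 of the 10 genes were among the 16871 rows that passed its filter. A gene was called at a Benjamini-Hochberg adjusted p under 0.05, over all tested rows, together with a fold change over 1.5 in either direction. None of the 7 genes was called in any comparison, and none was called by any of the alternative fits, DESeq2 and limma included. Calls were also nearly absent among all genes. They made up 0% of the tested rows in the Han BB vs. Dorset comparison, 0.00593% in Han ++ vs. Dorset, 0% in Han BB vs. Han ++ and 0% in both Han groups vs. Dorset. DESeq2 called 38, 65, 2 and 88 genes in these 4 comparisons. The biological coefficient of variation, the relative spread between ewes, was 0.472. The p-values set a difference between groups against a spread estimated from 3 ewes per group, with information shared across the tested genes. The comparisons with Dorset share the Dorset libraries, and those with Han ++ share the Han ++ libraries, so none of them is independent of the others.

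Compared with the Dorset group, 5 of the 7 tested genes had lower and 2 had higher fitted levels in Han BB, with a median log2 difference of -0.45 against -0.01 over all tested rows. PIWIL2 was 4.25-fold lower in Han BB (log2 difference -2.09, SE 0.85, unadjusted p = 0.0324, edgeR adjusted p = 0.975). It was the only gene of the 7 at an unadjusted p under 0.05, which 4.99% of all tested rows reached. Its unadjusted p was 0.077 without the Dorset ewe D5 and 0.0628 without both W4 and D6. Of all 10 genes, ZP2 was higher and DAZL and PIWIL2 were lower in every Han BB library than in every Dorset library, where 6.91% of all rows with a read had groups that did not overlap. The interval of ZP2 ran from -0.52 to 1.12 and that of ZP3 from -1.24 to 1.34. KHDC3L, with a log2 difference of -0.66 (SE 1.21), and NOBOX, with one of -1.02 (SE 1.38), were measured less precisely still.

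In the Han ++ vs. Dorset comparison, 6 of the 7 tested genes had lower fitted levels, with a median log2 difference of -1.08 against -0.06 over all tested rows. KHDC3L was 10.3-fold lower in Han ++, a value that rests on 5 reads in the 3 Han ++ libraries together (log2 difference -3.36, SE 1.40, unadjusted p = 0.0354, edgeR adjusted p = 0.897), and 5.27% of all tested rows reached such a p. Leaving out 1 ewe at a time moved its log2 difference between -5.38 (without W8) and -2.70 (without W7) and its unadjusted p between 0.0106 (without W8) and 0.125 (without W6), so the size of this difference is poorly known. ZP3 had a log2 difference of -1.08 (SE 0.60, edgeR unadjusted p = 0.0978). Its edgeR unadjusted p was 0.00283 without W6 and 0.268 without W8. PIWIL2 and DDX4 had log2 differences of -1.55 (SE 0.84) and -1.10 (SE 0.81). ZP2, KHDC3L, DDX4, DAZL and PIWIL2, 5 of the 10 genes, were lower in every Han ++ library than in every Dorset library, and 8.64% of all rows with a read had groups that did not overlap. GDF9, BMP15, ZP3, OOEP and NOBOX overlapped.

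Between the FecB genotypes, 5 of the 7 tested genes had higher fitted levels in Han BB than in Han ++, with a median log2 difference of 0.66 against 0.04 over all tested rows. ZP2 was 1.89-fold higher in Han BB (log2 difference 0.92, SE 0.38, 95% interval 0.08 to 1.75, unadjusted p = 0.0338, edgeR adjusted p = 0.999). It was 1 of 7 at an unadjusted p under 0.05, against 1.97% of all tested rows. It was also the only gene of the 10 whose genotypes did not overlap, against 7.92% of all rows with a read. The unadjusted p of ZP2 was 0.0985 without W8 and 0.0702 in the fit without a filter. ZP3 had a log2 difference of 1.13 (SE 0.60, edgeR unadjusted p = 0.0846), and limma gave 1.43 (unadjusted p = 0.0159). Over the fits that left out 1 ewe, it ran from 0.66 without W1 (edgeR unadjusted p = 0.333) to 2.18 without W6 (edgeR unadjusted p = 0.00251). KHDC3L had a log2 difference of 2.70 (SE 1.38, interval -0.35 to 5.75, edgeR unadjusted p = 0.0771). Without the Han BB ewe W4, which had 1 read of KHDC3L, that difference was 3.21 (unadjusted p = 0.0435 by edgeR). Over the fits that left out 1 ewe it ran from 2.03 to 4.73. The edgeR unadjusted p of these fits ran from 0.0185 to 0.217, the highest without W6. The interval of GDF9, from -1.01 to 1.78, and that of DDX4, from -1.13 to 2.44, included 0.

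The Han vs. Dorset comparison set the average of the fitted log2 levels of Han BB and Han ++ against Dorset. All 7 tested genes were lower in Han by this average. So were all 10 in the fit without a filter, where 54.4% of the 24744 rows with a read were lower. The median log2 difference in that fit was -0.51 over the 10 genes and -0.06 over all rows. PIWIL2 was 3.52-fold lower in Han (log2 difference -1.82, SE 0.68, 95% interval -3.32 to -0.31, unadjusted p = 0.0223, edgeR adjusted p = 0.696), and 6.12% of all tested rows reached an unadjusted p under 0.05. Its adjusted p was 0.329 in DESeq2 and 0.222 in limma, the lowest of the alternatives. The unadjusted p was 0.0672 without D5, the only setting among all that were tried, apart from leaving out D6, in which it passed 0.05. DAZL and PIWIL2 were the 2 of 10 genes for which all 6 Han libraries lay below all 3 Dorset libraries, against 2.75% of all rows with a read. DAZL took its test from the fit without a filter, where its log2 difference was -1.80 (SE 1.33, unadjusted p = 0.19, edgeR adjusted p = 0.874). In the same fit BMP15 differed by -0.23 (SE 1.24) and OOEP by -0.50 (SE 1.297). The plot of fitted differences gives all 4 comparisons side by side.

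**Figure D3:**
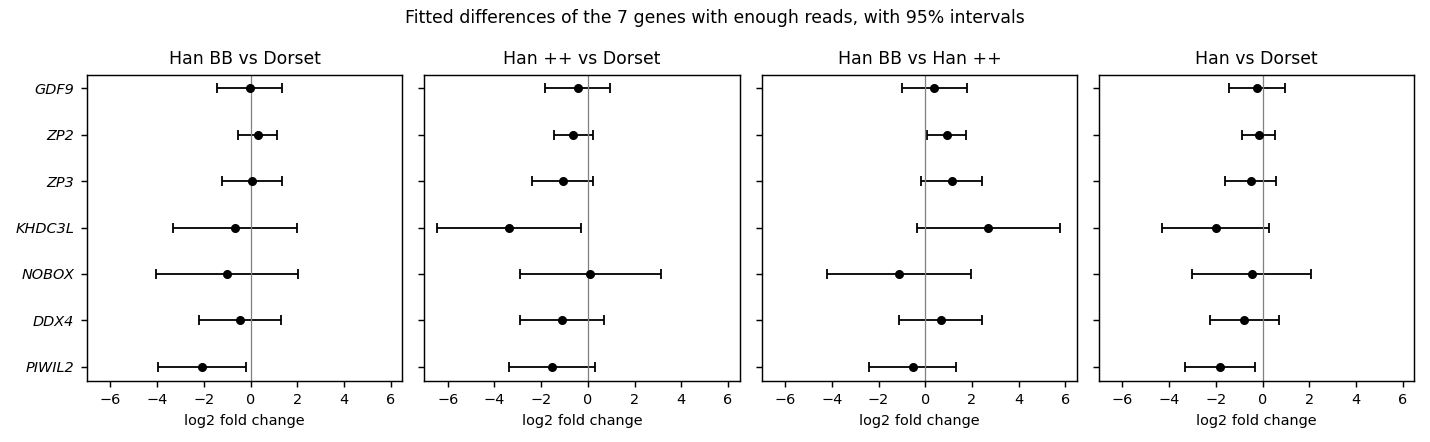
Log2 fold changes of the 7 tested genes from the edgeR fit, with 95% intervals, in the 4 comparisons. A negative value is a lower level in the group named first. Most intervals include 0. Those that do not are PIWIL2 in Han BB vs. Dorset and Han vs. Dorset, KHDC3L in Han ++ vs. Dorset and ZP2 in Han BB vs. Han ++, each with an adjusted p of at least 0.696.

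The 10 genes varied across ewes in different ways. Among the 7 tested genes, Pearson's r of the log2 level over the 9 libraries ran from -0.13 to 0.82 across 21 pairs, with a median of 0.38, as a description over libraries that share their depth with every gene in them. The zona genes ZP2 and ZP3 had r = 0.81, and r = 0.84 without W2. DDX4 and PIWIL2 had r = 0.82, which dropped to 0.49 without W2, the ewe with 4 and 1 reads of these genes. GDF9 and KHDC3L had r = -0.13.

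Other oocyte and germ line genes were read through 5 lists and a receptor list. Of 14 further genes of the zona, subcortical maternal complex and egg surface, 9 had a row and were tested, and 5 were lower and 4 higher in Han ++ than in Dorset, with a median log2 difference of -0.18. The most-read among them were CD9, a tetraspanin of the egg membrane that many other cells carry, ZBED3 and PADI6, with log2 differences of 0.23 (SE 0.31), 0.06 (SE 0.52) and -1.19 (SE 0.79). None reached an unadjusted p under 0.05 in any comparison. Of 8 oocyte transcription factors, 4 were tested, and 3 of them were lower in Han ++ than in Dorset. TAF4B differed by 0.16 (SE 0.28), SOHLH2 by -1.04 (SE 0.59) and LHX8 by -1.03 (SE 0.73).

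The list of stored mRNA and meiotic arrest genes, which serve the arrested oocyte and the maturing egg, was lopsided by count in the comparisons that involve Han ++. Of 22 genes 16 were tested, and 15 of the 16 had lower fitted levels in Han ++ than in Dorset, with a median log2 difference of -1.06, where 55.9% of all tested rows were lower. In Han BB vs. Han ++, which uses the same Han ++ libraries, 15 of 16 were higher in Han BB (median 0.53), where 46.6% of all tested rows were lower. In Han BB vs. Dorset 11 of 16 were lower (median -0.18), where 50.6% of all tested rows were lower. The 16 genes were read in the same libraries and may vary together, so they are not independent observations. None of them was called. The exception in both comparisons with Han ++ was KIT, which encodes a receptor also carried by other ovarian cells. Its log2 difference was 0.71 (SE 0.27, edgeR unadjusted p = 0.0219) in Han ++ vs. Dorset. The other most-read genes, UCHL1 and PATL2, differed by -0.28 (SE 0.39) and -0.27 (SE 0.25). The histone chaperone gene NPM2 and the RNA-binding protein gene ELAVL2, named after their values were seen, were the lower genes at an unadjusted p under 0.05. NPM2 differed by -1.59 (SE 0.60, edgeR unadjusted p = 0.0229, adjusted p = 0.881) and ELAVL2 by -1.62 (SE 0.66, edgeR unadjusted p = 0.0322, adjusted p = 0.891). The summed level of the list, 123 to 158 CPM in Dorset and 126 to 149 in Han ++, overlapped, since KIT and UCHL1 carry most of its reads.

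Of 27 germ line RNA and piRNA genes 21 were tested, and 13 were lower and 8 higher in Han ++ than in Dorset, with a median of -0.20. The most-read were TDRD7, TEX14 and TDRD12. TEX14, which holds germ cell bridges open, averaged 32.0 ± 11.6 CPM in Dorset, 26.7 ± 14.2 in Han BB and 12.5 ± 1.68 in Han ++. Its log2 difference was -1.36 (SE 0.40, edgeR unadjusted p = 0.00632, adjusted p = 0.684) in Han ++ vs. Dorset and 1.09 (SE 0.40, edgeR unadjusted p = 0.0199, adjusted p = 0.999) in Han BB vs. Han ++. TDRD7 and TDRD12, which act in germ granules, differed by 0.01 (SE 0.36) and -0.02 (SE 0.37) between Han ++ and Dorset. Of 24 meiotic chromosome genes 12 were tested, and 7 were lower and 5 higher in Han ++ than in Dorset. Among the most-read, MLH3 differed by 0.24 (SE 0.32), MEI1 by -0.23 (SE 0.33) and STAG3 by -0.67 (SE 0.47). MSH5, a meiotic recombination gene named after its values were seen, differed by -1.29 (SE 0.51, edgeR unadjusted p = 0.0276, adjusted p = 0.891). SYCP3, DMC1, SPO11 and STRA8, which act in early meiosis and were named after their values were seen, had 0 to 15 reads in a library and were not tested. The plot of the lists shows these differences gene by gene.

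**Figure D4:**
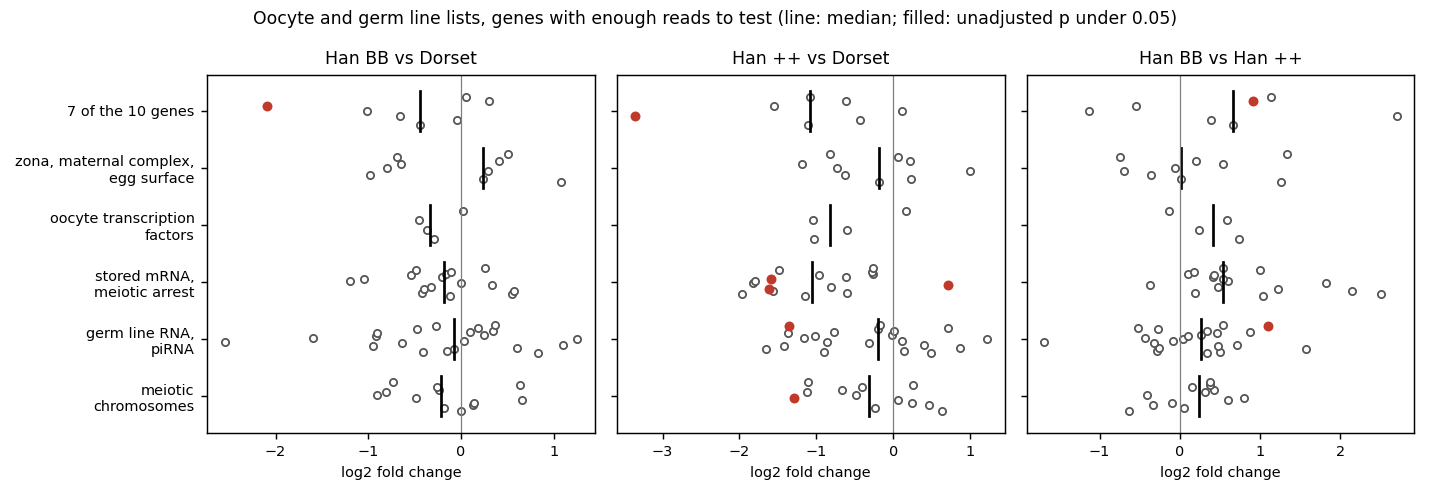
Log2 fold changes of the tested genes of each list in 3 comparisons, with the lists in rows. Points are genes, filled at an unadjusted p under 0.05, and the vertical line is the list's median. In Han ++ vs. Dorset the stored mRNA and meiotic arrest list has 15 of 16 points to the left of 0, and in Han BB vs. Han ++ it has 15 of 16 to the right. The axes of the panels differ in range.

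Of the receptors for GDF9 and BMP15, BMPR1B, the gene that carries FecB, had 0 to 8 reads and BMPR2 0 to 9 reads in a library, and neither could be tested. Whether these rows cover the transcripts of the genes was not tested, so the counts need not mean low expression. BMPR1A, TGFBR1 and ACVR1B were tested and none reached an unadjusted p under 0.05. Their log2 differences in Han BB vs. Han ++ were 0.19 (SE 0.30), 0.09 (SE 0.27) and -0.54 (SE 0.46).

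Levels of markers of other cell types were also compared between the groups, and apart from ROPN1L none was called in the edgeR fit of all libraries. All 12 measured markers of ciliated epithelium had higher fitted levels in Han than in Dorset (median log2 difference 1.03), and their summed level was 183 to 359 CPM in Dorset, 277 to 770 in Han BB ewes, and 428 to 643 in Han ++ ewes. They included ROPN1L, the only gene called in the edgeR fit of all libraries, with a log2 difference of 2.71 (SE 0.31, edgeR adjusted p = 0.0446) in Han ++ vs. Dorset. No gene was called in that comparison by limma, by edgeR with only the groups compared, or when any 1 library other than W4 was left out. The 4 oviduct secretory markers summed to 386 to 726 CPM in Dorset, 859 to 1138 in Han BB ewes, and 793 to 1855 in Han ++ ewes, nearly all of it from OVGP1. The summed granulosa markers were 568 to 852 in Dorset, 376 to 588 in Han BB ewes, and 398 to 650 in Han ++ ewes, with 6 of 8 lower in Han. Theca markers summed to 166 to 299 in Dorset, 112 to 178 in Han BB ewes, and 99.3 to 203 in Han ++ ewes, and 5 of 6 were lower in Han. The summed luteal markers, 329 to 1802 in Dorset, 375 to 1761 in Han BB ewes, and 860 to 1524 in Han ++ ewes, overlapped. Smooth muscle markers, 3813 to 8979, 4315 to 6248 and 4577 to 7339 in the same order, overlapped in sum, with 3 of 4 lower in Han than in Dorset. In Han BB vs. Dorset the log2 difference was -1.19 for CNN1 (SE 0.40, edgeR unadjusted p = 0.0128) and -1.23 for DES (SE 0.51, edgeR unadjusted p = 0.0332). The more-read markers MYH11 and ACTA2 differed by -0.46 (SE 0.51) and 0.07 (SE 0.34) in that comparison. The immune markers summed to 85.3 to 165, 139 to 282 and 158 to 203, and all 4 that were tested were higher in Han, of which ITGAM, a myeloid integrin, had a log2 difference of 1.57 (SE 0.43, edgeR unadjusted p = 0.00381). FOXL2 and CYP19A1, which define granulosa cells, had no row. The part of the tissue makeup in the levels of the oocyte genes was not tested.

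The genes whose levels followed the oocyte genes most closely were sought among the 16864 other tested rows, by Pearson's r over the 9 libraries with the mean standardized log2 level of the 7 tested genes. The first 10 were GMPR (r = 0.90), TMEM190 (0.90), SLC1A6 (0.90), NPM2 (0.89), IRF8 (0.89), FAM211A (0.88), TDRD1 (0.88), TPBG (0.88), LOC101106083 (0.87) and PDCD2L (0.87). NPM2 and TDRD1 are on the oocyte and germ line lists, and 8 genes of these lists were among the first 100, where r was at least 0.775. The ranking was unstable, since 3 of the first 10 ranked 10 or better by Spearman's rho, with tied genes given their best shared rank, and 1 did when W4 and D6 were left out.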

How the data were processed

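Ovary RNA of 9 ewes was sequenced. With TopHat, run at default settings, the authors mapped the reads to sheep build Oar3.1, and they deposited the raw, unnormalized counts of each gene in every library. Reads that mapped uniquely were kept. The program that counted them, its strand setting and all versions are information not given in the sources used here. Therefore genes that overlap on opposite strands are uncertain, and reads that near-identical copies share were not counted. The kit is described as stranded and depleted of ribosomal RNA in the study's methods, but as another TruSeq RNA kit in the labels.

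Groups came from the labels' breed and genotype. The test of the deposited counts used edgeR 4.0.16 in R 4.3.3 (TMM factors, filterByExpr by group, glmQLFit and glmQLFTest, 1 fit of 9 libraries, Benjamini-Hochberg over 16871 tested rows of 27174). Calls needed an adjusted p under 0.05 and a fold over 1.5 in either direction. Genes with few reads were given in raw reads with 95% exact Poisson intervals (scipy 1.17.1), a count of 0 allowed up to 3 reads, and the fit without a filter was used for all 10 genes. Total counts were 10803913 to 20992535 per library. The correlation of levels used log2 CPM with a prior count of 0.5.

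The alternatives were DESeq2 1.42.0, its size factors in edgeR, limma 3.58.1 voom with quality weights, no filter, a filter of 1 CPM in 3 libraries, only the groups compared, a term for W4 and D6 or leaving both out, and leaving out each library. Overlap of groups under other scales and with libraries left out was chosen after seeing the data. The genes and the lists were chosen with earlier results of these data known. Named genes were the 10 genes, the 3 most-read tested genes of each further list, any gene called and the 10 genes with the most similar pattern, except where a gene is said to be named after its values were seen. The 3 most-read rule was applied in the text to the oocyte and germ line lists, and cell type markers were given as sums, with CNN1, DES and ITGAM named after their values were seen. Sequences were not used here.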

Additional observations from a re-analysis of the deposited data

How the results depend on the processing

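None of the 10 oocyte genes was called in any comparison under any setting that tested it. A gene that a setting filtered out, as the main fit did BMP15, DAZL and OOEP, or left without an adjusted p could not be called there. The number of calls among all genes moved. For Han BB vs. Dorset it was 0, with 38 in DESeq2, 2 without a filter, 1 with a term for W4 and D6, 2 with both left out and 0 to 1 with 1 library left out (1 without W4). For Han ++ vs. Dorset it was 1, with 65 in DESeq2, 0 in limma, 11 without a filter, 0 with only the groups compared, 78 with the term, 22 with both left out and 0 to 5 with 1 library left out (5 without W4). For Han BB vs. Han ++ it was 0, with 2 in DESeq2 and 2 in limma. For Han vs. Dorset it was 0, with 88 in DESeq2, 6 without a filter, 71 with the term, 6 with both left out and 0 to 4 with 1 library left out (4 without W4). Over the fits that left out 1 library, the log2 difference in Han BB vs. Dorset ran from -0.51 to 0.33 for GDF9, from -0.43 to 0.26 for ZP3 and from -1.76 to 0.0748 for DDX4. In Han ++ vs. Dorset that of NOBOX ran from -0.87 to 0.80, and was -1.94 in limma and -0.0592 with the term, while that of BMP15 was -0.0025 in DESeq2 against 0.01. In Han BB vs. Han ++ that of GDF9 ran from -0.0645 to 0.79 and was -0.0649 without W4 and D6. In the same comparison that of DDX4 ran from -0.64 to 1.18, and was -0.40 in limma, -0.33 with the term and -0.64 with both left out, and that of NOBOX was 1.05 in limma. In Han vs. Dorset that of GDF9 ran from -0.62 to 0.0728 and that of NOBOX from -0.95 to 0.24. The ewes whose removal turned these signs were W2, D5 or D6 (GDF9), W1 or D4 (ZP3) and W2 (DDX4) in Han BB vs. Dorset, W8 or D4 (NOBOX) in Han ++ vs. Dorset, W4 (GDF9, DDX4) in Han BB vs. Han ++ and D5 (GDF9, NOBOX) in Han vs. Dorset. The cause of these shifts was not tested. The genes whose groups did not overlap were 3, 5, 1 and 2 of the 10 in the 4 comparisons under TMM, DESeq2 size factors and library totals alike. Under TMM, 6.91%, 8.64%, 7.92% and 2.75% of all rows with a read did not overlap in these comparisons. Fewer libraries make separation easier by construction. Without W4 and D6 the counts were 6, 5, 2 and 4. With 1 library left out they ran from 3 to 5 (5 without D6), 5 to 7 (7 without D4), 1 to 4 (4 without W7) and 2 to 3 (3 without W4 or D6). The share of all rows without overlap was not computed for these reduced sets of libraries, so their counts cannot be set against a background. No paired analysis was possible because the groups compared share at most 1 ewe number (W4 with D4, W6 with D6) and replicate numbers within a group only follow accession order. Depth limits BMP15, DAZL and OOEP most, with at most 21 reads in a library.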

Other observations

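The testis and sperm markers were included as a check that the ovary lacks them. TNP1 had 0 to 22 reads in a library and was not tested, and PRM1, PRM2 and ACR had no row, while the row named AKAP4 had 429 to 1270 reads in every library and did not reach an unadjusted p under 0.05 in any comparison by edgeR. The ratio of BMP15 reads to GDF9 reads, 2 genes of the same cell, was 0 of 18 in W2 and 8 of 12 in D4, and lay between 0.0714 and 0.375 in the other 7 libraries.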
